A study of Danio rerio with 12 samples.

Results

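The proteasome genes analysed here were the 21 Ensembl genes whose symbol in the study's expression, proteome or result tables begins with psm, followed by a letter from a to g and a number. They were 21 of the 31953 genes listed at 5 days post fertilization (dpf), and 20 of them were among the 20963 genes listed at 8 dpf. They comprised 9 genes of the 20S core (*psma1*, *psma5*, *psma8*, *psmb1*, *psmb4*, *psmb6*, *psmb8*, *psmb9a* and *psmb10*), 7 of the 19S regulatory particle (*psmc3*, *psmc4*, *psmc5*, *psmd1*, *psmd6*, *psmd9* and *psmd11b*) and 5 others (*psme1*, *psme2*, *psme3*, *psme4a* and *psmg3*). The symbol of *psme4a* came only from the study's lists of features that changed, so its values at 8 dpf are given as a description with no test. The other symbols came from the study's matrices and protein list, which were not limited to changed genes.

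RNA-Seq had been performed on whole zebrafish larvae of the AB background, each library made from a pool of 5 larvae. The 4 groups of 3 libraries were homozygous *mia40a* mutants (Mut, labelled waw1/waw1) and wild type (WT) at 5 dpf, and Mut and WT at 8 dpf. The larvae came from crosses between heterozygous carriers, and those collected at 8 dpf had received food since 5 dpf. The study named starvation of Mut as a possible bias at 8 dpf and kept its further work to the 5 dpf samples. The part of starvation in the values given here was not tested. *mia40a* encodes the oxidoreductase that imports and folds cysteine-rich proteins of the mitochondrial intermembrane space. The study gives its *mia40a* mutants another allele name. That allele carries a small deletion in an exon, predicted to shift the reading frame to an early stop codon. Whether waw1 is that allele is not stated in the sources used here.

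The 26S proteasome degrades proteins that carry ubiquitin chains. Its 20S core is a barrel of alpha and beta rings with the cutting sites inside, and the 19S particle binds the substrate, removes the ubiquitin and unfolds the chain with a ring of ATPases. In yeast, impaired import of mitochondrial proteins raises proteasome assembly and activity, and in mammals the transcription factor NRF1 (*nfe2l1*) raises the genes of the subunits together when proteasome activity is short. The comparisons below address whether the proteasome transcripts differed between Mut and WT at each age and whether core and regulatory particle moved alike.

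All levels are normalized values rounded by the authors. At 5 dpf they are read counts scaled for library depth. At 8 dpf they are log expression with the batch effect removed by the authors, returned to the linear scale. The values sum to between 16997847 and 18177809 per library at 5 dpf and between 22595423 and 25417541 at 8 dpf. The 2 ages were normalized separately and gene lengths were not used, so levels are compared neither between ages nor between genes. In whole larvae, fewer cells of a type and less RNA per cell cannot be told apart. The transcript of *mia40a* itself (*chchd4a*) had values of 264, 262 and 261 in Mut and 82, 91 and 92 in WT at 5 dpf. At 8 dpf it had 383, 413 and 443 in Mut and 488, 394 and 397 in WT. The groups were apart at 5 dpf and overlapped at 8 dpf. Some libraries stood apart for the proteasome genes. Of the 13 core and regulatory genes other than *psmb8*, *psmb9a* and *psmb10*, 12 had their highest value at 5 dpf in Mut2 alone, *psmd9* had the same highest value in Mut2 and Mut3, and all 13 had their highest value at 8 dpf in WT1. The 8 dpf libraries had been collected and processed at different times, and the trace left in the values places Mut3 and WT3 in a smaller batch and the other 4 in a larger one.

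At 5 dpf, the genes of the core and of the regulatory particle had moderately higher means in Mut. This held for all 13 core and regulatory genes other than the immunoproteasome genes, by 2.34% to 25.7% in the fit, against 49.8% of all genes tested with a higher mean. The summed value of the 6 core genes was 7646, 8697 and 7883 in Mut, against 7129, 6701 and 6775 in WT, 17.6% higher by the means. The summed value of the 7 regulatory particle genes was 8412, 9422 and 8578 in Mut, against 7747, 7733 and 7619 in WT, 14.3% higher. For both sums the lowest Mut library lay above the highest WT library.

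Of the 20 genes tested, 3 were called higher in Mut (limma, adjusted p under 0.05 over all genes tested) and 0 lower. Over all 22521 genes tested, 3.82% were called higher and 2.17% lower, and 6.85% were called higher among genes with a mean of at least 500, a comparison added after the values had been seen. At an unadjusted p under 0.05, 9 of the 20 were higher and 1, *psmb9a*, was lower, against 11.3% and 8.73% of all genes tested. The groups did not overlap, with every Mut above every WT, for 9 of the 20 genes, against 12.9% of all genes tested and 17.4% of those with a mean of at least 500. These were *psma5*, *psmb1*, *psmb4*, *psmb6*, *psmc4*, *psmc5*, *psmd1*, *psmd11b* and *psme3*. The median log2 fold change was 0.27 for the 6 core genes and 0.22 for the 7 regulatory particle genes, against 0.00 over all genes tested. Over all 8 core genes tested, including *psmb8* and *psmb9a*, the median was 0.22, with 6 higher and 2 lower by the means. Of all 20 members tested, 17 had a higher mean in Mut and 3 a lower one.

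**Figure D1:**
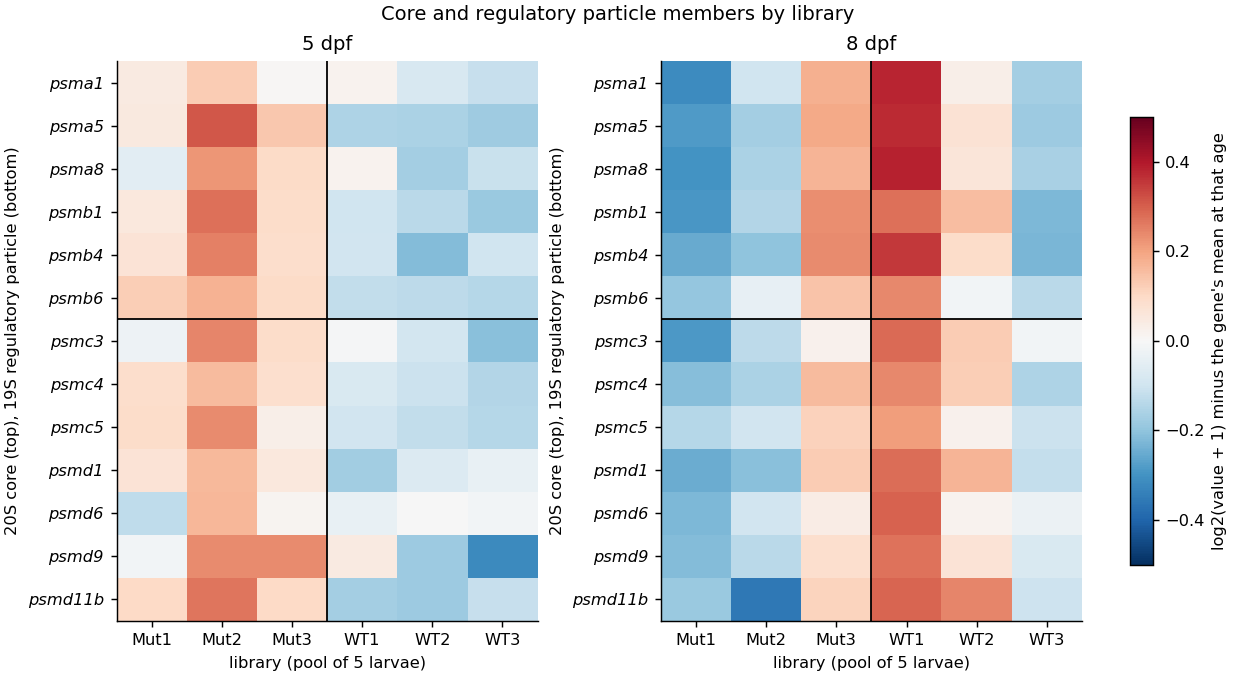
Values of the 13 core and regulatory genes in each library, on the log2(value + 1) scale after subtracting the gene's mean at that age, with 5 dpf on the left and 8 dpf on the right and Mut libraries left of WT libraries. At 5 dpf Mut2 is the highest library for 12 genes and ties with Mut3 for *psmd9*, and at 8 dpf WT1 is the highest for all 13 and Mut1 the lowest for 12.

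The map of values by library shows that the genes varied together from one library to the next at both ages. Counts of these genes are therefore not counts of separate observations, and they rest on 3 pools per group. Among the alpha subunits, which form the outer rings and the gate of the core, *psma5* (ENSDARG00000003526) was called higher. Its values were 1141, 1365 and 1210 in Mut, against 989, 986 and 973 in WT. The groups did not overlap, and the WT libraries lay much closer together than the Mut libraries. The log2 fold change was 0.33 ± 0.08 (SE, n = 3 each; limma adjusted p = 0.037). *psma1*, another alpha subunit, had 1391, 1473 and 1355 in Mut, against 1365, 1277 and 1247 in WT. *psma8*, related to the alpha subunit encoded by *psma7*, had 1610, 1947 and 1784 in Mut, against 1688, 1483 and 1547 in WT. The groups overlapped for both genes (adjusted p of 0.388 for *psma1* and 0.285 for *psma8*, limma).

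The constitutive beta subunits were higher in every Mut library than in any WT library. *psmb6* (ENSDARG00000002240), the catalytic subunit with caspase-like activity, was called higher. It had 989, 1025 and 970 in Mut, against 834, 829 and 821 in WT, a log2 fold change of 0.26 ± 0.07 (SE, n = 3 each; limma adjusted p = 0.045). *psmb1* and *psmb4* encode beta subunits without a cutting site. *psmb1* had 1130, 1316 and 1161 in Mut and 1017, 991 and 956 in WT (log2 fold change 0.28, adjusted p = 0.064, limma). *psmb4* had 1385, 1571 and 1403 in Mut and 1236, 1135 and 1231 in WT (0.27, adjusted p = 0.064, limma).

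In the regulatory particle, *psmd11b* (ENSDARG00000005134), the lid subunit known as Rpn6 that clamps the particle to the core, was called higher. Its values were 594, 667 and 593 in Mut, against 493, 488 and 512 in WT, without overlap. The log2 fold change was 0.31 ± 0.08 (SE, n = 3 each; limma adjusted p = 0.049). *psmc3*, *psmc4* and *psmc5* encode ATPases of the base that unfold the substrate, with log2 fold changes of 0.21, 0.22 and 0.24 and adjusted p of 0.217, 0.074 and 0.088 (limma). The groups overlapped for *psmc3*, with 1296, 1563 and 1405 in Mut against 1313, 1238 and 1140 in WT, and did not overlap for *psmc4* and *psmc5*. *psmd1*, the large base scaffold, had 1866, 1991 and 1845 in Mut and 1579, 1699 and 1736 in WT (0.19, adjusted p = 0.159, limma). *psmd9*, which encodes an assembly chaperone of the base, had 136, 162 and 162 in Mut and 142, 121 and 110 in WT (0.30, adjusted p = 0.25, limma). The lid subunit gene *psmd6* differed least of the 7, with 1194, 1463 and 1318 in Mut and 1273, 1304 and 1294 in WT (0.03, 95% interval −0.15 to 0.21).

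The 3 calls rest on small differences. At an adjusted p under 0.1, 7 members were higher, against 6.13% of all genes tested, and with a log2 fold change of at least 0.9 required as well, 0 were called in either direction, against 1.15%. With any 1 library left out, 1 gene was called (without Mut1) or 0 genes were (without Mut2, Mut3, WT1, WT2 or WT3), while the median of the core genes stayed between 0.21 and 0.29. For single genes, the exact two-sided permutation test of 3 against 3 libraries cannot go below p = 0.1, which was the value of each gene without overlap.

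**Figure D2:**
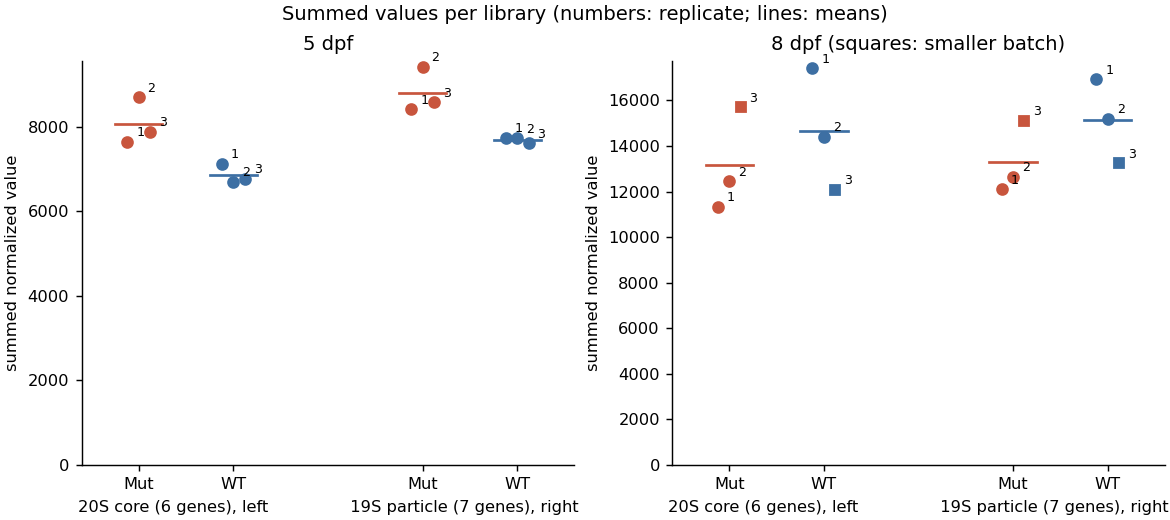
Summed normalized values of the 6 core genes and the 7 regulatory particle genes in each library at 5 dpf (left) and 8 dpf (right), with Mut left of WT, numbers giving the replicate and lines the means. All Mut libraries lie above all WT libraries at 5 dpf, and the groups overlap at 8 dpf, where squares mark the smaller batch.

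At 8 dpf the direction by the means was the opposite, and none of the 19 members tested was called. All 13 core and regulatory genes had a lower mean in Mut, against 47.9% of all genes tested. The plot of summed values shows how far the groups overlapped. The summed core value was 11328, 12462 and 15701 in Mut, against 17424, 14415 and 12079 in WT, a change of −10.1% by the means. The summed regulatory particle value was 12099, 12642 and 15104 in Mut, against 16935, 15200 and 13237 in WT, a change of −12.2%. In both sums the third Mut library lay above the third WT library, while the other Mut libraries lay below the other WT libraries.

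Of these 19, which leave out *psme4a*, 0 were called higher and 0 lower at 8 dpf (limma), where 1.34% of all genes tested were called higher and 3.32% lower. At an unadjusted p under 0.05, 2 of them were lower, *psmc3* and *psme3*, and 0 were higher, against 12% and 8.77% of all genes tested. The median log2 fold change was −0.15 for the 6 core genes and −0.19 for the 7 regulatory particle genes, against 0.01 over all genes tested. Over all 8 core genes tested it was −0.17, and all 8 had a lower mean in Mut. For the core, *psma1*, *psma5*, *psma8*, *psmb1*, *psmb4* and *psmb6* had log2 fold changes between −0.19 and −0.06 with adjusted p of at least 0.546. *psma5*, higher at 5 dpf, had 1737, 1881 and 2411 in Mut and 2743, 2227 and 1867 in WT (−0.18, 95% interval −0.55 to 0.20). *psmb6* had 1426, 1584 and 1798 in Mut and 1926, 1615 and 1486 in WT (−0.06, 95% interval −0.34 to 0.21). The groups overlapped for both.

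In the regulatory particle, the lid gene *psmd11b* had 881, 783 and 1083 in Mut and 1227, 1186 and 932 in WT at 8 dpf (log2 fold change −0.29, adjusted p = 0.306, limma). *psmc3* had 1737, 1936 and 2154 in Mut and 2583, 2319 and 2100 in WT (−0.27, adjusted p = 0.202, limma). In both genes only the third WT library lay within the range of the Mut libraries. The other 5 genes, *psmc4*, *psmc5*, *psmd1*, *psmd6* and *psmd9*, had log2 fold changes from −0.22 to −0.08.

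**Figure D3:**
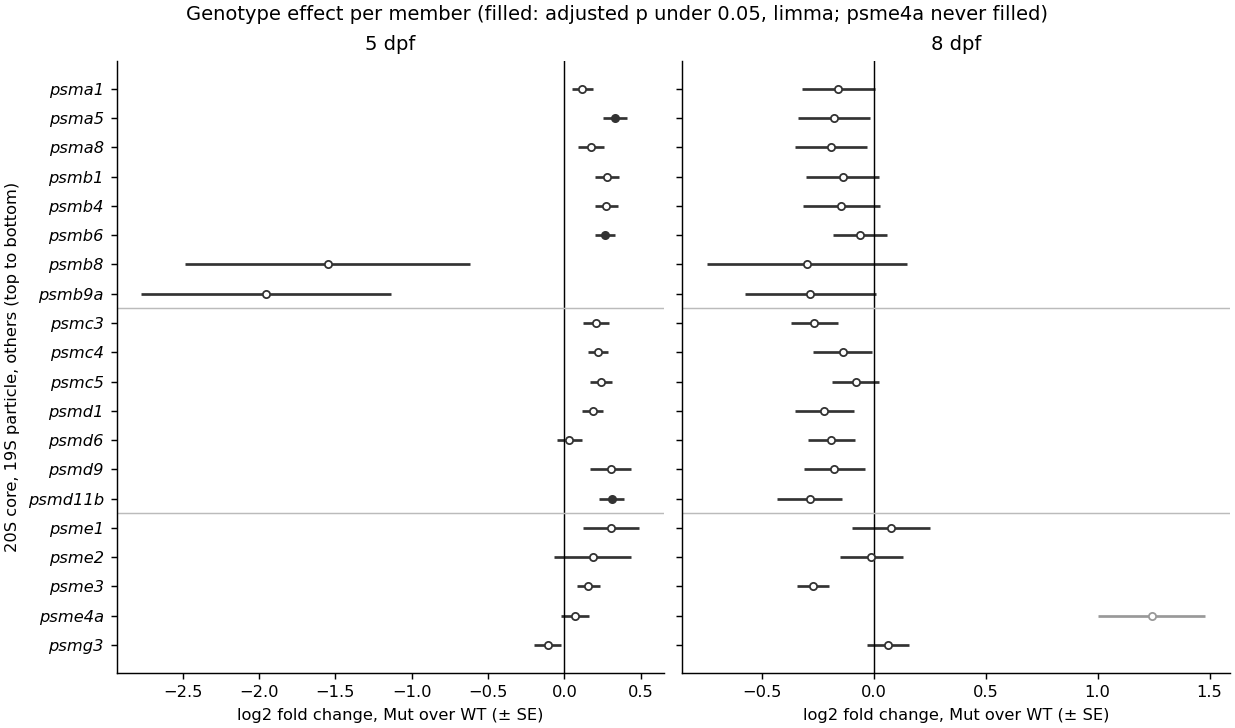
Log2 fold change of Mut over WT with its standard error (limma) for the 20 genes tested at 5 dpf (left) and 8 dpf (right), with the 20S core at the top, the 19S particle in the middle and the others at the bottom. Filled points mark *psma5*, *psmb6* and *psmd11b* at 5 dpf, which had an adjusted p under 0.05, and *psme4a* at 8 dpf is drawn in grey without a test.

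The plot of genotype effects places the 13 core and regulatory genes other than the immunoproteasome genes to the right of 0 at 5 dpf and to the left of 0 at 8 dpf. *psmb8* and *psmb9a* lie to the left of 0 at both ages. The standard errors of the 13 genes are larger at 8 dpf for all but *psmd9*. Within the larger batch at 8 dpf, Mut1 and Mut2 lay below WT1 and WT2 for all 13 core and regulatory genes, a pattern found in 23.2% of all genes tested. In the smaller batch, Mut3 lay above WT3 for all 13. The median log2 fold change of the 13 genes was −0.42 in the larger batch and 0.27 in the smaller one. Being lower in Mut in the larger batch and higher in the smaller one was found in 15.7% of all genes tested. A genotype by batch term, added after the values had been seen, gave an adjusted p under 0.05 for 0 of the 13 genes and for 0 of all genes tested (limma). At an unadjusted p under 0.05 it counted 11 of the 13 genes, against 5.32% of all genes tested. With 1 library per genotype in the smaller batch, the batch and these 2 pools cannot be told apart.

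Transcripts of digestive enzymes also varied between these libraries, in no constant direction relative to the proteasome sums. The summed value of 9 exocrine pancreas markers at 8 dpf was 22628, 12995 and 7461 in Mut, against 15860, 30464 and 50922 in WT. The sums were farthest apart in the smaller batch, where the median log2 fold change of the markers was −2.78, against −0.43 in the larger batch. Within the larger batch the sum of Mut1 lay above that of WT1. At 5 dpf the sum was 50144, 49447 and 61710 in Mut, against 141274, 101427 and 101039 in WT. Of the 9 markers, 8 were called lower in Mut at 5 dpf, against 2.17% of all genes tested. At 8 dpf 0 of the 9 markers were called (limma), against 3.32% of all genes tested called lower, and the groups overlapped for all 9. At an unadjusted p under 0.05, 5 of the 9 markers were lower at 8 dpf (limma), against 12% of all genes tested. Their part in the values of the proteasome genes was not tested.

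**Figure D4:**
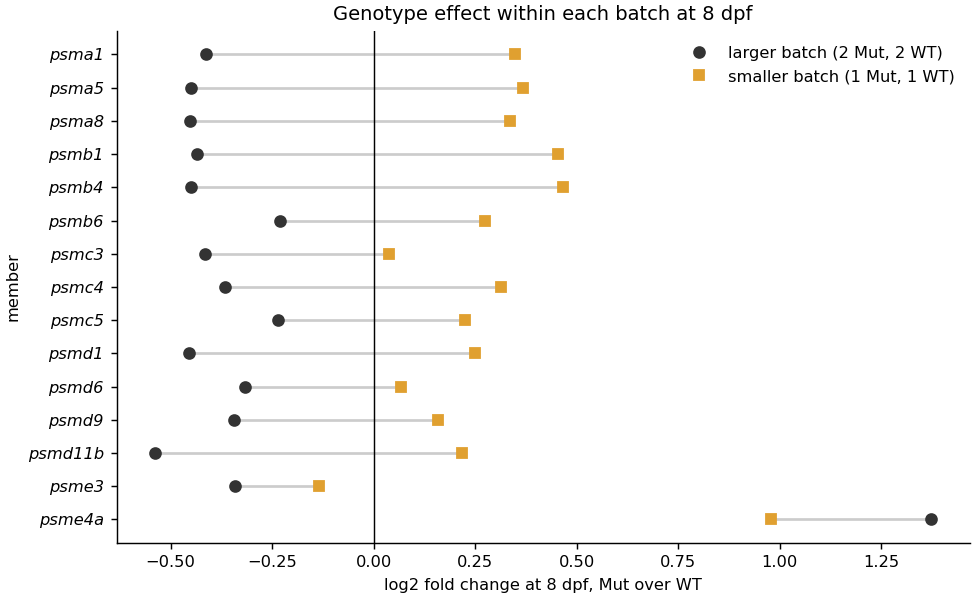
Log2 fold change of Mut over WT at 8 dpf within the larger batch (circles, 2 Mut and 2 WT libraries) and the smaller batch (squares, 1 Mut and 1 WT library) for the 13 core and regulatory genes, *psme3* and *psme4a*. The 13 core and regulatory genes lie below 0 in the larger batch and above 0 in the smaller one, *psme3* lies below 0 in both, and *psme4a* lies above 0 in both.

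In the plot of effects within batches, the activator gene *psme3* had the same sign in the larger and the smaller batch. *psme3* encodes PA28 gamma, a nuclear activator that opens the core without ubiquitin or ATP. At 5 dpf it had 535, 600 and 574 in Mut, against 515, 508 and 507 in WT (log2 fold change 0.16, adjusted p = 0.288, limma). At 8 dpf it had 1053, 1065 and 1143 in Mut, against 1323, 1363 and 1254 in WT (−0.27 ± 0.07, SE, n = 3 each; limma adjusted p = 0.074). Every Mut library lay above every WT library at 5 dpf and below every WT library at 8 dpf, where 17.3% of all genes tested had every Mut below every WT.

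*psme4a* (ENSDARG00000087911) encodes PA200, an activator that caps the core and is known in mammals for the breakdown of acetylated histones in sperm cells and after DNA damage. At 8 dpf its values were 1721, 1797 and 1539 in Mut, against 986, 467 and 781 in WT, a log2 fold change of 1.24. Without WT2, the lowest of these libraries, it was 0.90. Within the larger batch the log2 fold change was 1.37, and in the smaller one 0.98. Since *psme4a* was listed only as a feature that changed, these values at 8 dpf are a description and not support for a difference. At 5 dpf the gene had 333, 339 and 319 in Mut and 342, 312 and 293 in WT (0.07, 95% interval −0.14 to 0.27, limma adjusted p = 0.739). The reference gene table gives the symbol *PSME4* to another gene as well (ENSDARG00000018742), which is not a member. That gene was not higher in Mut at 8 dpf, with 1477, 1556 and 1443 in Mut and 1562, 1566 and 1656 in WT (−0.10, adjusted p = 0.455, limma). At 5 dpf it had 1279, 1118 and 1185 in Mut and 1129, 1249 and 1186 in WT (0.01).

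**Figure D5:**
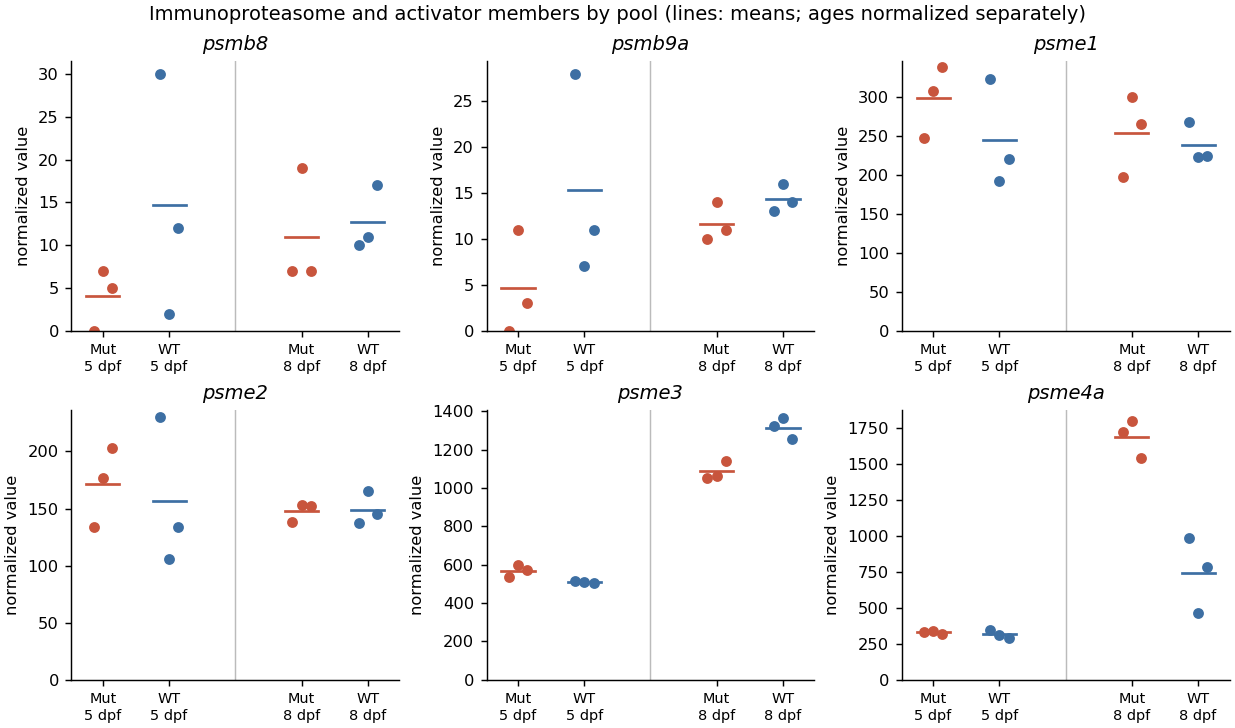
Normalized values of *psmb8*, *psmb9a*, *psme1*, *psme2*, *psme3* and *psme4a* in each library at 5 and 8 dpf, Mut left of WT, with lines at the means. *psme4a* is apart between the genotypes at 8 dpf with 1539 to 1797 in Mut and 467 to 986 in WT, *psme3* is slightly higher in Mut at 5 dpf and lower at 8 dpf, and the other 4 genes overlap at both ages.

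The plot by gene shows the interferon-inducible members as well. In mammals *PSMB8*, *PSMB9* and *PSMB10* encode the catalytic subunits that replace the constitutive ones in the immunoproteasome, which makes peptides for presentation on MHC class I molecules. The genes listed in the study as *psmb8*, *psmb9a* and *psmb10* all had very low values. At 5 dpf *psmb8* had 0, 7 and 5 in Mut, against 30, 2 and 12 in WT. *psmb9a* had 0, 11 and 3 in Mut, against 28, 7 and 11 in WT, with a log2 fold change of −1.95 (95% interval −3.77 to −0.13, limma adjusted p = 0.215). *psmb10* had 0, 3 and 0 in Mut, against 12, 2 and 2 in WT, and did not reach the mean of 5 required for a test.

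Mut1 was listed at 0 for all 3 genes at 5 dpf and WT1 had the highest value of each, and the fitted changes of *psmb8* and *psmb9a* depend on the value of 1 added before the logarithm. With 1 library left out, the log2 fold change ranged from −2.47 to −0.62 for *psmb8* and from −2.81 to −1.02 for *psmb9a*. At 8 dpf *psmb8* had 7, 19 and 7 in Mut and 10, 11 and 17 in WT. *psmb9a* had 10, 14 and 11 in Mut and 13, 16 and 14 in WT. The groups overlapped for both. The reference gene table names the identifier listed as *psmb10* (ENSDARG00000001656) *psmb13a*. It gives the symbol *PSMB10* to another gene (ENSDARG00000043781), which is not among the 21. That gene had 87, 101 and 110 in Mut and 123, 95 and 86 in WT at 5 dpf (log2 fold change −0.02, 95% interval −0.39 to 0.35), and 155, 203 and 193 in Mut and 202, 180 and 178 in WT at 8 dpf (−0.03, 95% interval −0.37 to 0.31). Its groups overlapped at both ages, and its values were not near 0. In the table's GRCz12tu assembly *psmb13a*, *psmb8a*, *psmb12* and *psmb9a* are 4 consecutive protein-coding genes. Reads that fitted several places or several genes had not been counted, so the low values of these related neighbours are uncertain.

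Markers of leukocytes, which express the immunoproteasome in mammals, were measured beside them. All 7 leukocyte markers had a lower mean in Mut at both ages, against 50.2% of all genes tested at 5 dpf and 47.9% at 8 dpf. At 5 dpf 0 of the 7 were called, against 2.17% of all genes tested called lower. At 8 dpf 1 of the 7 was called lower (*lyz*), against 3.32% of all genes tested. Every Mut lay below every WT for 4 of the 7 at 8 dpf, against 17.3% of all genes tested. The summed value of the 7 markers at 5 dpf was 1384, 1840 and 1319 in Mut, against 1945, 1599 and 2157 in WT. At 8 dpf it was 732, 1040 and 785 in Mut, against 1272, 1271 and 1429 in WT. Their part in the values of *psmb8*, *psmb9a* and *psmb10* was not tested.

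The interferon-inducible activator PA28 alpha beta is encoded by *psme1* and *psme2*. At 5 dpf *psme1* had 248, 308 and 339 in Mut and 323, 192 and 221 in WT. *psme2* had 134, 177 and 203 in Mut and 230, 106 and 134 in WT. WT1 was the highest WT library and Mut1 the lowest Mut library for both genes, as for *psmb8* and *psmb9a*, and the groups overlapped. At 8 dpf the log2 fold change was 0.08 for *psme1* (95% interval −0.32 to 0.47) and −0.01 for *psme2* (95% interval −0.33 to 0.31). *psmg3* encodes a chaperone that helps to build the alpha ring. It had 335, 364 and 357 in Mut and 405, 385 and 351 in WT at 5 dpf (−0.11, 95% interval −0.31 to 0.09), and 564, 534 and 522 in Mut and 549, 467 and 537 in WT at 8 dpf (0.06, 95% interval −0.15 to 0.28).

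The difference between the genotype effects at 8 and 5 dpf was tested per gene over 20598 genes. All 13 core and regulatory genes were higher in Mut at 5 dpf and lower in Mut at 8 dpf by their means, a pattern found in 22.9% of all genes. Of the 19 members other than *psme4a*, 3 were called with a lower effect at 8 dpf and 0 with a higher one, against 6.15% and 1.94% of all genes. The test was a t test of the difference between the 2 limma fits, with Satterthwaite degrees of freedom. The called members were *psme3* (difference −0.43 ± 0.10 on the log2 scale, SE, n = 3 per group, adjusted p = 0.015 by this t test), *psmc3* (−0.47 ± 0.14, adjusted p = 0.042) and *psmd11b* (−0.60 ± 0.17, adjusted p = 0.044). For *psma5* and *psmb6*, called at 5 dpf, the difference was −0.51 and −0.33 (adjusted p of 0.117 and 0.179). The count was 11 without Mut3 or WT3 of 8 dpf, which leaves the larger batch as the source of the effect at that age. It was 0 without Mut2 of 5 dpf or without Mut1 or Mut2 of 8 dpf, and 1 without WT2 of 5 dpf or without WT1 or WT2 of 8 dpf.

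A further 35 proteasome genes carried their symbol only in the reference gene table, 34 of which were tested at 5 dpf and 32 at 8 dpf. At 5 dpf 31 of the 34 had a higher mean in Mut, against 49.8% of all genes tested. Of the 34, 3 were called higher and 0 lower, against 3.82% and 2.17% of all genes tested. Every Mut lay above every WT for 17 of them, against 12.9% of all genes tested. The called genes were *PSMB7* (ENSDARG00000037962), the core subunit with trypsin-like activity, with 1453, 1738 and 1592 in Mut against 1251, 1283 and 1168 in WT (log2 fold change 0.37, limma adjusted p = 0.027), the alpha subunit gene *PSMA4* (0.28, adjusted p = 0.043) and a second gene of the lid clamp, listed as *PSMD11* (ENSDARG00000060150), with 680, 774 and 780 in Mut against 582, 568 and 591 in WT (0.36, adjusted p = 0.028). At 8 dpf 30 of the 32 had a lower mean in Mut, against 47.9% of all genes tested. Of the 32, 0 were called in either direction (limma), against 1.34% of all genes tested called higher and 3.32% lower. At an unadjusted p under 0.05, 5 were lower and 0 higher (limma), where 12% of all genes tested were lower. Of 28 core and regulatory genes among them, 27 were lower in Mut in the larger batch. Of these, 21 were also higher in the smaller one, a pattern found in 15.7% of all genes tested. Between the ages, 5 of the 32 were called with a lower effect at 8 dpf, against 6.15% of all genes.

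Of 15 symbols of the NRF family and its regulators, 11 were found among the genes listed. Of these 11 genes, 0 were called at 5 dpf, with 2 higher and 1 lower at an unadjusted p under 0.05 (limma), against 11.3% and 8.73% of all genes tested. At 8 dpf 1 was called higher and 1 lower, against 1.34% and 3.32% of all genes tested. *nfe2l1a*, a zebrafish gene for NRF1, had 441, 518 and 438 in Mut, against 232, 185 and 228 in WT, a log2 fold change of 1.11 ± 0.13 (SE, n = 3 each; limma adjusted p = 0.0096). *nfe2l3*, which encodes the related NRF3, had 386, 387 and 368 in Mut, against 584, 581 and 617 in WT (−0.64 ± 0.08, adjusted p = 0.012). The groups were apart for both. The other gene for NRF1, *nfe2l1b*, had 589, 535 and 652 in Mut and 737, 709 and 627 in WT at 8 dpf (−0.22, adjusted p = 0.267, limma).

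Among 7 proteasome-associated genes, all 7 had a higher mean in Mut at 5 dpf, against 49.8% of all genes tested. All 7 had a lower mean at 8 dpf, against 47.9%. In the larger batch all 7 were lower in Mut, and 4 of them were higher in the smaller one, a pattern found in 15.7% of all genes tested. None was called at 5 dpf, where 2 were higher at an unadjusted p under 0.05 (limma), against 11.3% of all genes tested, and *ecpas*, which encodes an adaptor of the 26S proteasome, was called lower at 8 dpf (log2 fold change −0.38, adjusted p = 0.038). Among 24 ubiquitin and p97 genes, *ubqln4*, which encodes a shuttle of ubiquitinated proteins, was called higher at 5 dpf (0.48, adjusted p = 0.034), and 1 of the ubiquitin genes listed as *ubb* (ENSDARG00000093313) was called lower at 8 dpf (−0.61, adjusted p = 0.014). The 22 other genes of this list were not called at either age. Over all genes tested, 3.82% were called higher at 5 dpf and 3.32% lower at 8 dpf, and 1 of 24 is near these shares.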

How the data were processed

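The authors trimmed reads with Trimmomatic 0.33, aligned them with STAR 2.4.0a to GRCz10 (Ensembl 87) and counted them with featureCounts 1.4.5-p1, leaving out reads that fitted several places or genes. The deposited score at 5 dpf is a count scaled by each library's size factor and then rounded. The deposited score at 8 dpf is log expression with the batch effect removed by the authors (edgeR 3.16.5), returned to the linear scale and then rounded. Neither is a raw count, so log2(value + 1) was fitted with limma 3.58.1 (trend, two-sided) in R 4.3.3 on genes with a mean of at least 5, with genotype at 5 dpf and genotype and batch at 8 dpf. The batch was read from the values, since the deviations of Mut3 and WT3 mirror each other (r = −0.9999 over 9920 genes). P-values were adjusted by Benjamini-Hochberg over all genes tested, and the ages were compared from the separate fits with Satterthwaite degrees of freedom.

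Members and lists were chosen with earlier results of these data known. Not every symbol of the lists matched a gene. The matches were 11 of 15 NRF symbols, 7 of 8 leukocyte symbols, 7 of 9 proteasome-associated symbols and 22 of 23 ubiquitin and p97 symbols. Each member is named, with values per library for called members, *psme4a* and the immunoproteasome genes. Of each other list at most 5 called genes per age are named, apart from *nfe2l1b*, *PSMB10* and *PSME4*, which were added after their values had been seen. Values per library of further members were added for comparison. Replicates are pools from the labels. Whether pools of a group came from different clutches is not stated, so the p-values measure the spread between these pools. The read depth of each library is not known from the scaled values, so no counting interval is given. The limma fits were tested on simulated data. Other pseudocounts, filters, scalings, thresholds, no trend, a replicate block, no batch term, the larger batch alone and leaving out each library were tried. The genotype by batch term, the smaller batch alone and the share among genes with a mean of at least 500 were added after the values had been seen. Figures were made with Python 3.11.15 and matplotlib 3.10.9.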

Additional observations from a re-analysis of the deposited data

Results flagged for a closer look

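The genotype effect differed between the ages, by the test of the difference itself, for 14 of the listed genes. Tested at both ages were 20 members (*psme4a* was left out of the 14), 32 further proteasome genes and 7 associated genes. The other lists held 24 ubiquitin and p97 genes, 11 NRF genes, 9 pancreas markers and 7 leukocyte markers. Of all genes, 6.15% were called with a lower effect at 8 dpf and 1.94% with a higher one. The difference is the log2 fold change of Mut over WT at 8 dpf minus that at 5 dpf. Among the members it was −0.47 for *psmc3*, −0.60 for *psmd11b* and −0.43 for *psme3* (adjusted p of 0.042, 0.044 and 0.015, Satterthwaite t test on the limma fits). Among the other proteasome genes it was −0.41 for *PSMC1*, −0.62 for *PSMD10*, −0.56 for *PSMD11*, −0.48 for *psmd4b*, −0.46 for *PSMB5* and −0.49 for *ecpas*. It was −0.49 for *ubb*, −0.63 for *ubqln4* and −0.59 for *vcp*, which encodes the p97 segregase. The NRF genes went apart, with 1.02 for *nfe2l1a* and −0.72 for *nfe2l3*. With 3 libraries per group, no test of single outlying libraries was made.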

How the results depend on the processing

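At 5 dpf the 3 members called higher in Mut became 1 with no filter on low values or with libraries scaled to the same total, 0 without the trend, 0 with the replicate number as a block, 7 at an adjusted p under 0.1 (6.13% of all genes tested) and 0 when a log2 fold change of at least 0.9 was also required (1.15% of all genes). They ranged from 0 to 1 with 1 library left out. Over all genes, the 1350 called at 5 dpf became 344 without the trend, 616 with the block, 2204 at an adjusted p under 0.1, 260 with the fold threshold, and 481 (without Mut2) to 1464 with 1 library left out. At 8 dpf the 0 members called lower became 1, *psme3*, without the batch term. The count was also 1, again *psme3*, at an adjusted p under 0.1, where 6.1% of all genes tested were called lower. It was 0 with any library left out. The 977 genes called at 8 dpf became 0 without the trend, 504 with the block, 2331 without the batch term, 141 in the larger batch alone, 1962 at an adjusted p under 0.1, 190 with the fold threshold, and 33 (without Mut1) to 834 with 1 library left out. The 8 dpf calls of *nfe2l1a*, *nfe2l3*, *lyz*, *ecpas* and the *ubb* gene named above were therefore also lost without the trend. The median log2 fold change of the core genes at 8 dpf ranged from −0.44 (without Mut3 or WT3) to 0.00 (0.00048, without WT1), and was 0.36 in the smaller batch alone. That of the regulatory particle genes ranged from −0.37 to −0.07 and was 0.22 in the smaller batch alone. The 3 members with a different effect between the ages became 1 with the block and 0 to 11 with 1 library left out. The cause of these shifts was not tested, and some of these fits held fewer libraries. The deviations of same-numbered libraries correlated at −0.28, −0.19 and −0.10 at 5 dpf, and at 8 dpf the batch removal forces the third pair. Whether same-numbered pools shared a clutch is not stated. These values cannot decide it, since pools with different numbers were not compared at 5 dpf. All 13 core and regulatory genes stayed higher at 5 dpf and lower at 8 dpf under both other scalings.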
